A study of Arabidopsis thaliana with 12 samples.

Results

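Upstream open reading frames (uORFs) are short reading frames that lie ahead of the main coding region of an mRNA, and 147 Arabidopsis thaliana genes carried at least 1 that was listed as translated. They were chosen by the category deposited with each translated ORF: every ORF labelled as a uORF was taken, and the gene was read from its identifier. The rule gave 149 gene identifiers, of which 2 named the same uORF as a neighbouring locus and were joined with it, out of 18273 genes with any listed ORF. Root contributed 108 uORFs in 103 genes, 0.615% of 16757 genes (95% exact binomial interval 0.502 to 0.745). Shoot contributed 66 uORFs in 64 genes, 0.395% of 16191 genes (0.305 to 0.505). A uORF was listed in root only for 83 genes, in shoot only for 44 and in both for 20.

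The study compared roots and shoots of wild-type Col seedlings, 4 days old, by ribosome profiling, which sequences the mRNA fragments that ribosomes protect from nuclease. Seedlings grew in shaken liquid medium with sucrose under 16 h light and 8 h dark at 22 °C and were collected 3 h after lights on. The 4 groups of 3 samples were footprints and total RNA from each tissue, and the total RNA samples were not analysed here. The deposited tables held 1 value per ORF and tissue, so no replicate spread exists and no test was possible. Intervals of density ratios and of differences of log2 ratios cover counting error only. Intervals of shares treat genes or uORFs as independent draws, which overlapping uORFs of 1 gene are not. Footprints were amplified without molecular identifiers, so the counted fragments may repeat the same molecule. The counting intervals are therefore narrower than the true error.

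Ribosomes usually load at the cap of an mRNA and scan towards the coding region. One that translates a uORF on the way may terminate and leave the mRNA, or resume scanning and reinitiate downstream, so many uORFs lower the output of the coding region. In plants some uORFs encode conserved peptides that stall ribosomes in response to sucrose, polyamines or other metabolites, and others act through their position alone.

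The largest ORF counts per gene summed to 113381941 in root and 95481490 in shoot, and 6 of 6 root marker genes and 6 of 6 shoot marker genes took a larger share of the total in their own tissue. RHD6, a root hair regulator, was not listed in shoot, and SPCH and MUTE, which drive stomatal development, were not listed in root. Counts were comparable between ORFs only per length and are given below per codon where ORFs are compared. In whole seedling organs, fewer cells of a type and less RNA per cell cannot be told apart.

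Across both tissues there were 158 distinct uORFs, of which 14 were spliced from 2 blocks. By chromosome, 48 lay on chromosome 1, 30 on chromosome 2, 18 on chromosome 3, 19 on chromosome 4 and 43 on chromosome 5. With the stop codon left out, none shared a base with a listed coding ORF. Their starts lay at a median of base 136.5 of the transcript, 26 within the first 50 bases and 2 at base 1. The next listed coding start lay on the same transcript for 149 of them, at a median of 95 bases behind the uORF stop codon (quartiles 45 and 169). That start was not always the start of the main coding region. In PI4K GAMMA 7, AT3G26100 and AT3G53670 it belonged to an ORF of 49, 89 and 41 codons ahead of a longer one. The gap was 20 bases or fewer for 17 uORFs, 50 or fewer for 41, and over 200 for 28, with 536 the longest.

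A few uORFs ended right at the coding start. In AT1G01630 and AT3G45050 the last base of the uORF stop codon was the first base of the coding start. In AT5G25360 no base separated the stop codon from the coding start, and in RGA1, a DELLA repressor of gibberellin responses, 3 bases did. The RGA1 uORF of 35 codons (TAIR10, 2:257351-257454) held 289 root counts. The coding start was in the frame of the uORF for 55 of the 149, 1 base out of frame for 32 and 2 bases out for 62. The plot of lengths and gaps shows that short uORFs predominated and that gaps tailed towards long distances. Of the root uORFs 20 had 10 codons or fewer, as did 9 in shoot.

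**Figure D1:**
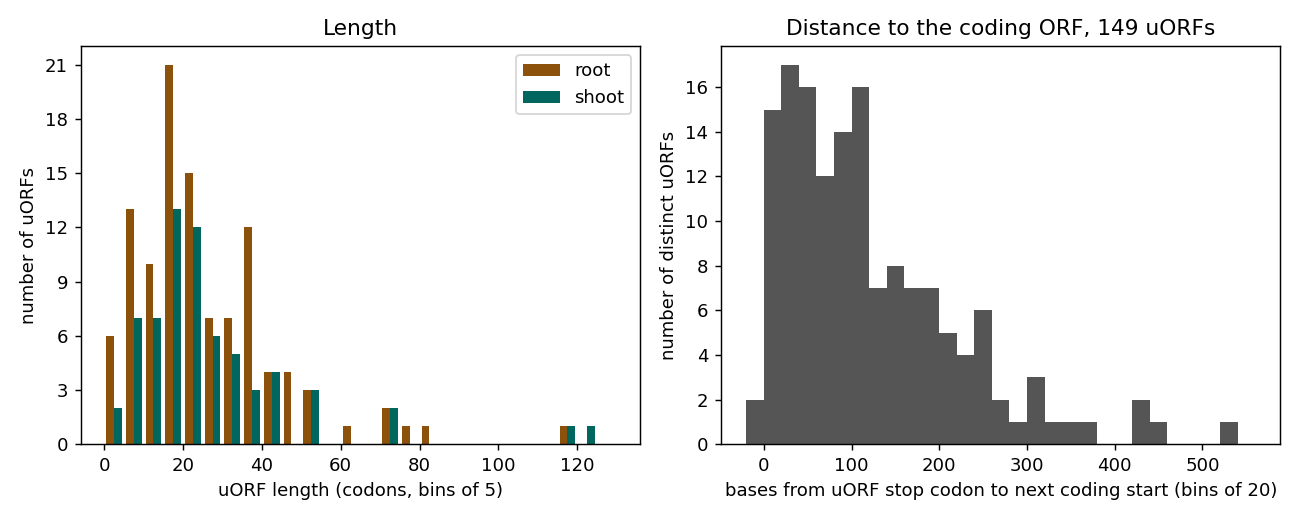
Distributions of uORF length in codons (root and shoot uORFs separately) and of the distance in bases from the uORF stop codon to the next listed coding start on the same transcript (149 distinct uORFs). The median distance was 95 bases, and lengths ran from 3 to 119 codons in root and from 4 to 123 in shoot.

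Footprints were about as dense on the typical uORF as on the coding region behind it. The density ratio, defined as counts per codon of the uORF over counts per codon of the gene's coding ORF with the largest count in that tissue, had a median of 1.26 in root (quartiles 0.773 and 2.90, 105 uORFs) and 1.23 in shoot (0.465 and 2.25, 63 uORFs). In root 67 of 105 uORFs were denser than the coding ORF (63.8%, exact interval 53.9 to 73.0), and in shoot 35 of 63 (55.6%, 42.5 to 68.1). The counting interval of the single ratio lay wholly above 1 for 58 root and 32 shoot uORFs and wholly below 1 for 33 and 21. The uORFs nonetheless held few counts, with a median of 6.18% of the coding count in root and 5.31% in shoot. Since the ORFs were listed because footprints were found on them, these ratios describe listed uORFs and not all uORFs of the transcriptome.

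The ratio ranged from 0.0139 to 178.1 in root and from 0.0294 to 10.5 in shoot. It was 4 or more for 18 root and 8 shoot uORFs and 0.25 or less for 9 and 6. Across uORFs it fell with the coding count (Spearman rho −0.59 over 105 root uORFs and −0.49 over 63 in shoot), a description in which both values share the coding count. Against uORF length rho was −0.16 in root and 0.06 in shoot, and against the gap 0.13 (101 uORFs) and 0.1 (61 uORFs). The shortest class, 10 codons or fewer, had a median ratio of 1.84 in root (20 uORFs) and 0.965 in shoot (9 uORFs). For the ratio, the tissues thus did not share an order by length. For the uORFs' own density, before division by the coding density, they did. From that class through 11 to 30 codons to over 30 codons, the median counts per codon in root fell from 28.4 over 11.8 to 7.17. The shoot medians of the same classes fell too, from 19 over 6.08 to 5.83.

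**Figure D2:**
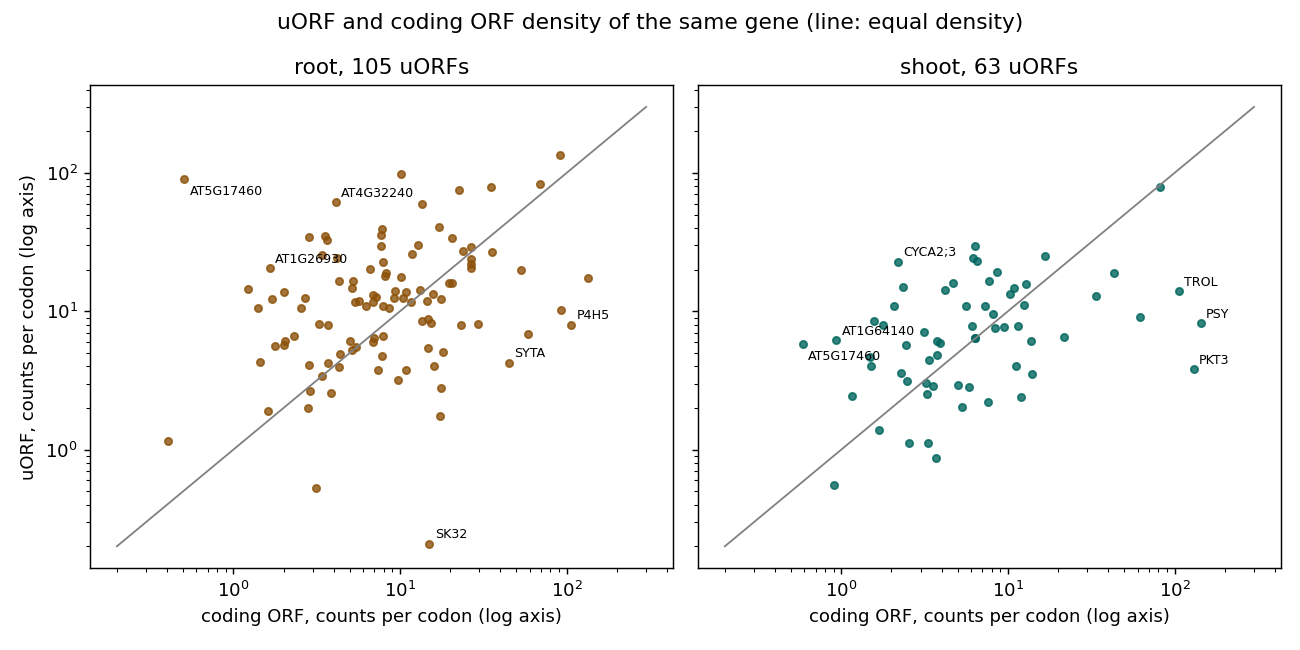
Counts per codon of each uORF against counts per codon of the coding ORF with the largest count in the same gene and tissue, on log axes, 1 point per uORF, with the line of equal density. In root 67 of 105 points and in shoot 35 of 63 points lie above the line.

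At the high end stood AT5G17460, whose uORF of 73 codons (5:5759407-5759624) held 6598 root counts against 167 on its coding ORF of 329 codons. That gave a ratio of 178.1 in root (interval 152.7 to 208.9). In shoot the same uORF held 422 counts against 137 on a coding ORF of 234 codons, a ratio of 9.87 (8.12 to 12.1). NAC082, a NAC transcription factor with a uORF of 37 codons (5:2894933-2895042), reached 11.9 in root (538 against 598 counts) and 5.43 in shoot (314 against 765). XBAT32, a RING ubiquitin ligase, held 245 root counts on 7 codons, a ratio of 9.89 (8.62 to 11.3). CYCA2;3, an A-type cyclin, led in shoot with 91 counts on 4 codons and a ratio of 10.5 (8.34 to 13.0). VHP2;2, a proton-pumping pyrophosphatase, was sixth in shoot, with 55 counts on 5 codons and a ratio of 5.28 (3.96 to 6.90). Only 4 root uORFs and 1 shoot uORF held more counts than the coding ORF. One was that of CIPK15, a calcineurin B-like interacting protein kinase, with 767 uORF counts on 63 codons against 707 coding counts in root.

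At the low end most of the coding regions were among those with many footprints. Among the 6 lowest ratios in shoot, however, AT3G07170 (0.198) and SLT1 (0.234) had 2449 and 1792 coding counts. The median coding count of genes with a uORF in shoot was 2473. SK32, a kinase of the GSK3 family, held 9 root counts on its uORF of 43 codons against 7095 on the coding ORF, a ratio of 0.0139 (0.00636 to 0.0265). P4H5, a prolyl hydroxylase that acts on cell wall proteins, held 32 on 4 codons against 31098, a ratio of 0.0749. SYTA, a synaptotagmin, stood at 0.0944 and STOP1, a zinc finger factor for acid and aluminium tolerance, at 0.101. PKT3, a peroxisomal thiolase of fatty acid β-oxidation, had the lowest ratio in shoot with 65 uORF counts against 60093, or 0.0294 (0.0227 to 0.0375). PSY, phytoene synthase at the entry to carotenoid synthesis, held 181 against 62572 in shoot, or 0.0575 (0.0494 to 0.0665). The uORFs of STOP1 and PSY had no listed coding ORF downstream on their own transcript, so their ratios set a uORF of one transcript against a coding ORF of another.

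The coding ORFs behind uORFs were longer and carried more counts than those of genes at large. In root the median coding count was 3000 for uORF genes and 1902 for all genes, with median lengths of 468 and 389 codons. Per codon this came to 7.02 and 4.81 counts. In shoot the medians were 1957.5 and 1468 counts, and 3.90 and 3.68 per codon. When all genes were cut into 4 classes of equal size by coding count, genes with a uORF in root were spread unevenly, 12, 17, 31 and 40 of 100 from the lowest class to the highest. The shoot numbers were 4, 15, 23 and 19 of 61. A uORF must collect footprints to be listed, so the abundance of the transcript and the listing were not independent.

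Only 16 uORFs had identical coordinates in both tissues. They made up 14.8% of the root list and 24.2% of the shoot list, against 69.1% of root and 71.1% of shoot coding ORFs. Sharing differed by count class. None of 18 root uORFs with under 100 counts was listed identically in shoot, against 8 of 20 (40.0%) with 500 or more. The coding ORFs of those classes were shared in 13.6% and 75.9% of cases. The class of 500 or more has no upper limit, so its uORFs and coding ORFs were not matched on count. In shoot 2 of 26 uORFs with under 100 counts (7.69%) and 2 of 3 with 500 or more (66.7%) were shared, against 25.5% and 78.3% of coding ORFs. The classes in between did not follow in steps. From 100 to under 200 counts, 13.8% of root uORFs and 38.1% of shoot uORFs were shared, against 27.2% and 39.2% of coding ORFs. From 200 to under 500 counts, 4 of 41 in root and 4 of 16 in shoot were shared, against 40.9% and 52.5% of coding ORFs.

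Most genes whose uORF was missing from a table still had their coding ORF there. Of the 108 root uORFs, 16 were identical in shoot, 2 ended at the same stop codon, 7 belonged to genes with another uORF there, 77 to genes with only a coding ORF there and 6 to genes with no ORF there. For the 66 shoot uORFs the numbers were 16, 1, 5, 41 and 3. If each of the 77 root uORFs had kept its ratio to the coding count, its shoot count would have been a median of 84.2. For 47 of them that was at or above 65, the first quartile of the listed shoot uORFs, and for 12 it was below 20, the lowest listed shoot count. The same step for the 41 shoot uORFs gave a median root count of 72.6, with 11 at or above the root quartile of 128 and 2 below the lowest listed root count of 9. Whether low counts account for the missing uORFs was not tested, and a uORF missing from a table was not shown to be untranslated.

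**Figure D3:**
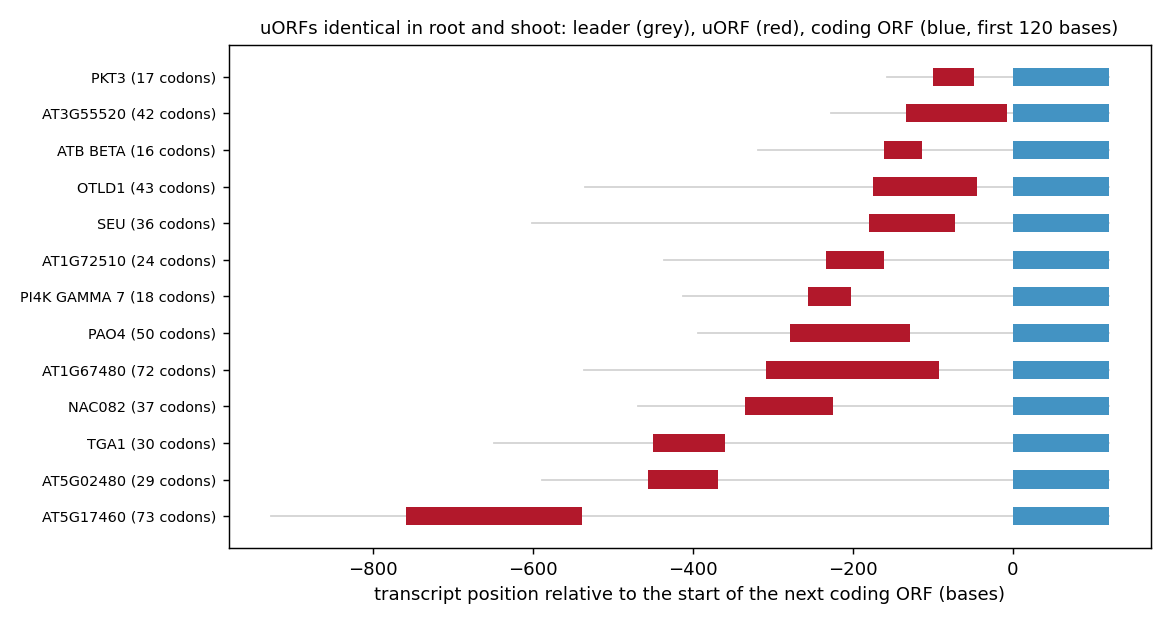
Positions on their transcripts, in bases relative to the next listed coding start, of the 13 uORFs that had identical coordinates in both tissues and a coding ORF downstream on their transcript. Grey lines are the leader from the transcript start, red boxes the uORFs and blue boxes the first 120 bases of the coding ORFs. In PI4K GAMMA 7 that coding ORF has 49 codons and lies ahead of a longer one. AT3G55520 ends 4 bases before the coding start, and AT5G17460, at 536 bases, lies farthest from it.

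Among the 16 shared uORFs, counts were lower in shoot for most. On shares of each tissue's total, with 0.5 added to each count, the log2 ratio (shoot over root) had a median of −1.15, and 13 were below 0. At least 4-fold higher values in root were reached by 4 uORFs, and by none in shoot. They were those of AT5G17460 (log2 −3.72), PI4K GAMMA 7, a phosphoinositide kinase family member with 708 root and 141 shoot counts (−2.08), and a pair in TGA1 (−2.05 and −2.01). Over all 11608 genes, coding ORFs were at least 4-fold higher in root in 8.28% and in shoot in 8.76%. Their median log2 ratio was −0.33. Scaled on the median ratio of all genes, 1 uORF instead of 4 passed that fold. TGA1, a bZIP factor of defence signalling, listed 4 uORFs in root and 2 in shoot that overlapped one another, so their counts were not separate measurements. AT5G02480 went the other way with 430 root and 865 shoot counts (log2 1.26).

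In 11 of the 16 the coding ORF was also identical in both tissues, which allowed uORF and coding region to be compared directly. The uORF log2 ratio minus the coding log2 ratio had a median of 0.05. It lay within 0.5 of 0 for 5 uORFs and within 1 for 7. The 11 include the overlapping pair in TGA1 (0.53 and 0.56), set against the same coding ORF, so they are not all separate measurements. PAO4, a peroxisomal polyamine oxidase, held 3757 uORF and 11309 coding counts in root and 800 and 2325 in shoot, so its density ratio was 3.30 and 3.42. ATB BETA, a regulatory B subunit of protein phosphatase 2A, had 256 and 9884 in root and 123 and 4724 in shoot, with ratios of 0.811 and 0.815. In both genes uORF and coding region differed between tissues by nearly the same factor.

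In others they did not move together. PKT3 had 174 uORF counts in root and 65 in shoot, while its coding counts were 42481 and 60093. The difference of the log2 ratios was −1.91 (counting interval −2.32 to −1.50). NAC082 differed by −1.13 (−1.38 to −0.88) and AT3G55520, with a uORF of 42 codons that ended 4 bases before the coding start, by −1.19 (−1.52 to −0.85). On the opposite side AT1G72510 fell less on the uORF (192 to 61 counts) than on the coding ORF (3821 to 537), a difference of 1.18 (0.75 to 1.62). SEU, a transcriptional corepressor of flower development, lay between at 0.24, with an interval from −0.07 to 0.56. Over the 14 shared uORFs with a ratio in both tissues, the order of the ratios was alike (Spearman rho 0.81), a description in which 2 of the points are the overlapping TGA1 uORFs.

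**Figure D4:**
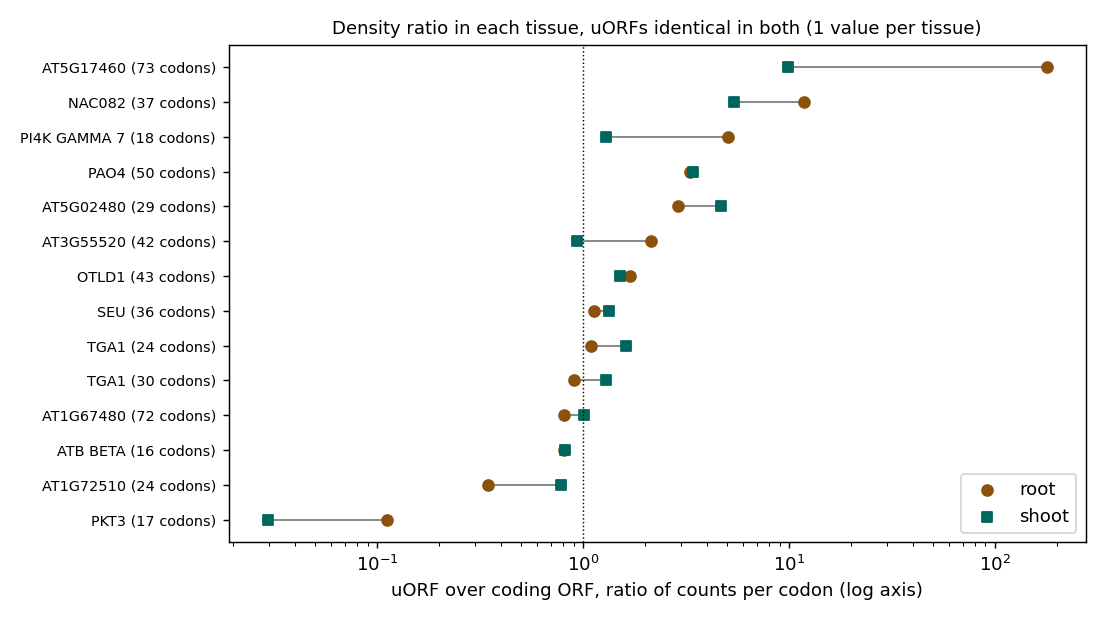
Ratio of uORF over coding ORF counts per codon in root (circles) and shoot (squares), on a log axis with a dotted line at 1, for the 14 uORFs that had identical coordinates and a ratio in both tissues. Each symbol is 1 value with no error bar. PAO4 and ATB BETA have nearly the same ratio in both tissues, whereas AT5G17460, NAC082 and PKT3 are lower in shoot.

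The genes with more than 1 distinct uORF were AT1G26850, RCD1, XXT5, OTLD1, NPY5, CIPK15, AT5G02480 and TGA1. RCD1, a hub protein that binds transcription factors in stress responses, held 302 counts on a uORF of 19 codons and 716 on one of 21 codons in root. In shoot the listed uORF shared the stop codon of the second but was 17 codons long and held 250 counts. XXT5, a xylosyltransferase of xyloglucan synthesis, had a uORF of 4 codons with 318 counts in root and another of 7 codons with 55 counts in shoot. CIPK15 likewise had different uORFs, 63 codons in root and 15 codons with 363 counts in shoot, and both were denser than the coding ORF (7.11 and 3.93).

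Of the 147 genes 136 had a coding ORF in both tissues, which is 95.1% of the 143 with any coding ORF, where 80.5% of all genes with a coding ORF had one in both. It was listed in root only for AT1G55630, AT1G72200, AT4G00880, AT4G38060 and ASL1, a gene of the LBD transcription factor family (11.3% of all genes), and in shoot only for HB33 and AT3G26850 (8.2% of all genes). The uORF genes carried more coding counts than genes at large, and these shares were not compared at like counts. PSBP-2, AT2G41000, AT2G41705 and AT3G24070 had a uORF but no listed coding ORF. PSBP-2 is a close copy of another gene for the same photosystem II protein, so its 125 shoot counts on 123 codons are uncertain.

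The same coding ORF could be compared between tissues for 110 of the 147 genes, those with an identical ORF in both and at least 100 counts in the higher tissue. On the log2 scale, shoot over root, the median was −0.57 for them and −0.33 over all 11608 genes. At least 4-fold higher counts were seen in shoot for 10 of them, where the share over all genes was 8.76%, and in root for 10, where it was 8.28%. Those shares were near the background. Scaled on the median gene, which moved every log2 ratio up by the 0.33 of the all-gene median, the numbers were 12 in shoot and 7 in root.

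Sorted by where the uORF was listed, coding ORFs leaned to the same tissue. The median log2 ratio was −0.97 over 64 genes with a uORF in root only, of which 7 were at least 4-fold higher in root and 0 in shoot. It was 0.49 over 31 genes with a uORF in shoot only, of which 9 passed 4-fold towards shoot and 0 towards root. Over all genes the shares past 4-fold were 8.28% towards root and 8.76% towards shoot, and the 7 of 64 were near the former. Against the median of all genes, 15 of the 64 and 27 of the 31 lay above it. The uORF and coding counts came from the same libraries, so these values describe the groups and are not separate evidence on the uORFs.

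**Figure D5:**
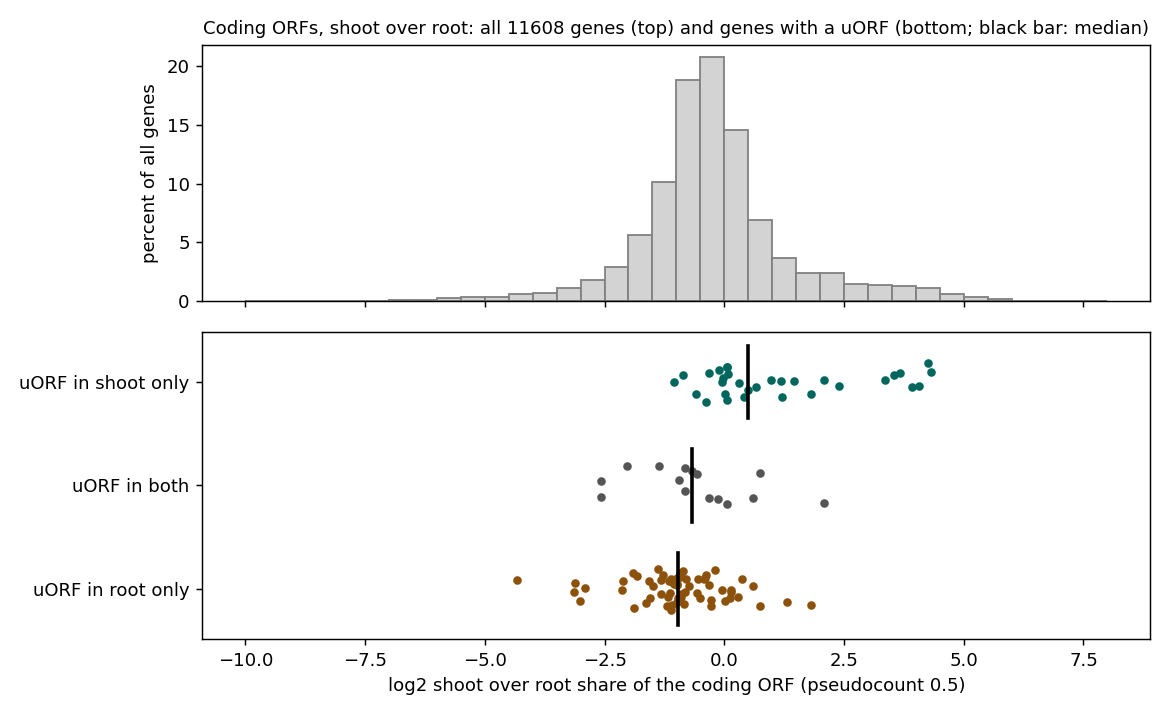
Log2 ratio of shoot over root shares of the coding ORF, as a histogram in percent of all 11608 genes (top) and as 1 point per uORF gene, by the tissue in which the uORF was listed, with a black bar at the median (bottom). Medians were −0.33 for all genes, −0.97 for genes with a uORF in root only, −0.68 for both and 0.49 for shoot only. Vertical scatter of the points has no meaning.

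Roles were assigned to 66 genes picked after the values were seen. The groups are small and do not hold every member with that role, so their split between tissues describes the picked genes only. Transcription and chromatin factors were 18 of them, 9 with a uORF in root only, 5 in shoot only and 4 in both, and a median ratio of 1.36. Beside NAC082, TGA1 and SEU they included MYB34, an activator of indole glucosinolate synthesis, with 746 root counts on 33 codons and a ratio of 2.85. MYB28, the related activator of the aliphatic branch, held 151 on 38 codons with a ratio of 0.926. bZIP19, a sensor of zinc deficiency, held 149 on 17 codons with a ratio of 0.592. HB5, a homeodomain leucine zipper factor, held 488 shoot counts on 31 codons with a ratio of 1.23.

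The 5 receptor kinases picked had their uORF listed in root only. BRL3, a brassinosteroid receptor, held 220 uORF counts on 21 codons against 1627 coding counts, a ratio of 7.50 (6.48 to 8.63). BIR1, a negative regulator of cell death, stood at 1.75 with 642 counts on 36 codons. BAM3, a receptor for CLE peptides in root phloem, stood at 0.833 with 198 counts, and MRH1, required for root hair growth, at 0.629 with 154. AT2G41820 had only 10 counts and a ratio of 0.168 (0.0804 to 0.309). In shoot all 5 had a coding ORF, with a log2 ratio from −3.02 for MRH1 to 0.29 for AT2G41820.

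Of 12 other protein kinases picked, 9 had the uORF in root only. Among them were 4 casein kinase I-like genes out of 13 with a coding ORF in both tissues. CKL13, CK1 and CKL6 each had a uORF of 17 codons, with 241, 102 and 438 root counts and ratios of 1.08, 0.876 and 2.19. ADK1 had one of 10 codons with 124 counts and a ratio of 4.64. None of the 13 had a listed uORF in shoot. Members of such a family are close in sequence, and footprints that fit more than 1 of them are uncertain.

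The 4 genes picked for ubiquitin and SUMO conjugation had the uORF in root only. Beside XBAT32 they were SIZ1, a SUMO ligase (312 counts on 19 codons, ratio 3.15), BPM3, an adaptor of CUL3 ubiquitin ligases (243 on 12 codons, 3.07), and UBC3, a conjugating enzyme (102 on 20 codons, 0.282). Membrane transport was represented by 7 genes, 4 in root and 3 in shoot. KUP6, a potassium transporter, had 82 root counts on 6 codons with a ratio of 1.26, and KCO1, a vacuolar potassium channel, 172 shoot counts on 13 codons with a ratio of 1.29.

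The 8 genes picked for a role in plastids had their uORFs listed in shoot only. This does not hold for plastid genes in general, since AT1G56190, whose product acts in plastids and which was not among the 8, had its uORF in root only, with 494 counts on 18 codons and a ratio of 1.15 (1.05 to 1.26). HEME2, uroporphyrinogen decarboxylase of tetrapyrrole synthesis, held 631 counts on 8 codons and a ratio of 0.965 (0.891 to 1.04). ABC4, of phylloquinone synthesis, held 449 on 27 codons with 2.15, and DXPS3, related to the entry enzyme of plastid isoprenoid synthesis, 128 on 16 codons with 4.52. FUG1, a plastid translation initiation factor, held 152 on 8 codons with 0.436, and TROL, which anchors ferredoxin reductase at the thylakoid, 126 on 9 codons with 0.132. The coding ORFs of the 5 that could be compared were all higher in shoot. Their log2 ratios had a median of 4.07, with PSY at the top at 4.32 (3718 root and 62572 shoot counts). At the other end of the uORF genes stood AT4G26220 at −4.33, AT5G01830 at −3.13 and P4H5 at −3.12.

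Like genes at large, most genes known for conserved or regulatory uORFs had no ORF in the uORF category. All 28 such genes had a listed ORF of the coding category, which can be an upstream ORF itself. Of them, PAO4 and NAC082 had a listed uORF, 7 had an upstream ORF that carried the coding category instead, and 19 had neither. Over all genes with any listed ORF, 147 of 18273 had a listed uORF. Of the 14 known genes whose uORF responds to a metabolite or ion, 0 had a listed uORF. In 3 an upstream ORF carried the coding category (SAC51, BZIP53 and SAMDC). With so small a share over all genes, 0 of 14 cannot be read as a shortfall. SAMDC encodes S-adenosylmethionine decarboxylase of polyamine synthesis. Its upstream ORF of 52 codons held 13796 root and 6903 shoot counts, against 9716 and 10158 on the enzyme's 366 codons. The density ratio was 9.99 in root (9.74 to 10.3) and 4.78 in shoot (4.64 to 4.93). SAC51, a bHLH factor of thermospermine signalling, had upstream ORFs of 20 and 53 codons with 521 and 821 root counts against 288 on 273 codons, which gave 24.7 and 14.7. PAO2, a relative of PAO4, stood at 0.584 in root and PAO3 at 0.452 in shoot, both below the 3.30 and 3.42 of PAO4. For 5 of the 7 genes (AT5G09460, AT5G50010, BZIP53, PAO2 and PAO3) the upstream ORF was listed in 1 tissue only. In the other tissue AT5G09460, AT5G50010 and BZIP53 had no listed ORF of the coding category at all. In shoot the longer ORF set against the upstream one had only 53 codons in SAC51 and 54 in AT5G09460.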

How the data were processed

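Footprint libraries came from 3 root and 3 shoot samples. Whole-number counts per translated ORF were deposited by the authors as 1 table per tissue, with no header, so whether they pool all replicates is not stated. Bowtie2, STAR 2.5.1b and the TAIR10 build are named in the submitters' processing notes, and the ORF caller is not given in the sources used here. Count minima and filters of that caller decide which uORFs exist in the tables. What the count is was read from the values.

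ORFs with the same strand and blocks were merged, and lengths exclude the stop codon. Coordinates are TAIR10, 1-based, with outer ends uncertain by 1 base. Log2 ratios used each count's share of the summed largest count per gene, a pseudocount of 0.5, and a minimum of 100 counts in the higher tissue. Density ratios have exact conditional 95% intervals, and shares exact binomial ones. Called means at least 4-fold. Symbols came from the RefSeq gene table, used for names only. Python 3.11.15, pandas 2.3.3 and scipy 1.17.1 were used, and the code was checked on simulated data.

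Members, lists and rules were chosen with earlier results of these data known. The genes named were those with a uORF in both tissues, the extremes of count, length, density ratio and coding ratio, genes with several uORFs or no coding ORF, and the listed known genes. Genes described by role, and those with the shortest gaps, were chosen after their values were seen. The alternatives changed merging, overlap, count and length minima, coding ORF, pseudocount and scaling.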

Additional observations from a re-analysis of the deposited data

How the results depend on the processing

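The 62 alternative values over 19 results comprised 54 that kept the direction and the size within the limits set, 8 that moved and 0 that reversed. A median counted as kept if it stayed within the 95% interval of the main median, which can be wide. Within it, the median density ratio in root went from 1.26 to 1.70 when 100 counts were required. The median log2 ratio of shared uORFs likewise went from −1.15 to −0.82 when scaled on the median ratio of all genes. With the stop codon left out, no uORF shared a base with a listed coding ORF. The alternative that required this therefore left every value unchanged and was no check. Its values are counted among the 54. Requiring 20 codons left 58 uORFs in 54 genes in root and 37 in 35 genes in shoot. Requiring 100 counts left 40 uORFs in 38 genes in shoot. Scaled on the median ratio of all genes, 1 shared uORF instead of 4 was at least 4-fold higher in root, and the median coding log2 ratio of uORF genes was −0.24. That scaling also moved the 4-fold calls of all genes from 1017 in shoot and 961 in root (51.4% shoot) to 1197 and 730 (62.1%), and those of uORF genes from 10 and 10 to 12 and 7 (63.2%). No paired analysis was possible because the tables hold no value per replicate, and leaving out each replicate in turn was not run for the same reason. Counts under 100 were found for 18 of 108 uORFs in root and 26 of 66 in shoot. Whether depth limits the list was not tested.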

Other observations

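The coding category held further short ORFs ahead of a longer one on the same transcript, in 203 genes of the root table and 181 of the shoot table. A listed uORF was also present in 3 and 2 of them. Whether each is a uORF or a piece of an annotated coding region was not checked. Among uORF genes, AT4G19110 had such an ORF of 41 codons in both tissues. It held 1210 counts in root and 1020 in shoot, against 3819 and 2473 on 464 codons downstream, or density ratios of 3.59 and 4.67. The uORF of AT4G19110, of 23 codons, was listed in shoot only with 47 counts. AT3G53670 had an ORF of 41 codons with 702 root counts against 695 on 203 codons, beside its uORF of 12 codons with 430 counts.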
